A study of Arabidopsis thaliana with 6 samples.

Results

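The genes described here make the galactolipids and the sulfolipid of the chloroplast, or break down phospholipids when membranes are remodelled. They are 10 genes chosen by identifier for their known role, out of 36917 in the count tables, and comprise MGD1, MGD2, MGD3, DGD1, DGD2, SQD1, SQD2, GDPD1, NPC5 and PLDZ2. Their RNA levels were compared between 2 groups of 3 RNA-Seq libraries from whole Arabidopsis thaliana seedlings. The first group was wild-type Col-0, and the other was amiR-mterf2, a knock-down line in the same background that expresses an artificial microRNA against MTERF2, the gene of a member of the mitochondrial transcription termination factor family. Seedlings of both groups were 6 days old and were grown under long days on agar medium with 1% sucrose, without a phosphate treatment. The study describes the replicates as independent, and the mutant group is a single transgenic line, for which the promoter driving the microRNA is not given in the sources used here.

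Galactolipids are the main lipids of the thylakoid membranes. A monogalactosyldiacylglycerol (MGDG) synthase transfers galactose to diacylglycerol, and a digalactosyldiacylglycerol (DGDG) synthase adds a further galactose. MGD1 and DGD1 are the housekeeping enzymes of these steps, whereas MGD2, MGD3 and DGD2 are known as enzymes of the response to phosphate shortage, in which galactolipids and the sulfolipid sulfoquinovosyldiacylglycerol take the place of phospholipids so that phosphate is released. SQD1 and SQD2 make the sulfolipid, and phospholipases such as NPC5 and PLDZ2 and the phosphodiesterase GDPD1 take phospholipids apart.

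The tables held 18004935 to 21832003 counts for each library. Levels are given as CPM, the count of a gene scaled to a fixed library size after normalisation by TMM, and 3 counts, taken as the detection floor, correspond to 0.14 to 0.175 CPM. Such floors cover counting error only, and the limit of detection lies higher where both reads of a pair are counted. Col-0 replicate 2 stood apart from the other libraries, since 46.1% of its counts from 1 to 100 were even against 67% to 69.4% in the other 5, and its mean chi-square distance per gene to the other Col-0 libraries was 24.3 and 25.2 against 3.03 between those. It also held more RNA of root hair genes, with a summed level of 54.3 CPM over 5 genes against 1.41 and 1.68 CPM in Col-0 replicates 1 and 3 and 0.0975 to 0.234 CPM in the amiR-mterf2 libraries. MTERF2, the targeted gene, was counted 48, 33 and 58 times in wild-type libraries and 32, 16 and 8 times in mutant libraries. One amiR-mterf2 library overlapped the Col-0 range, and the log2 fold change of -1.15 (SE 0.478) did not pass the test in edgeR (adjusted p = 0.0837, and 0.015 to 0.236 over the alternative fits that could test it).

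The promoters were read from the TAIR10.1 genome, because several of these genes are known targets of PHR1, the MYB factor of phosphate starvation, whose binding sequence P1BS is written GNATATNC. This sequence is its own reverse complement, so that both strands were searched at once. In the window from 250 bases before to 50 bases after the annotated gene start, 6 of the 10 genes held a match, namely MGD1, MGD2, DGD1, SQD1, GDPD1 and PLDZ2. Among all 27443 protein-coding promoters 6.25% did. Before the gene start, a match was found in 3 of the 10 genes, MGD2, GDPD1 and PLDZ2, against 5.46% of all promoters. The 250 bases before the start of these 3 genes are shown 5′ to 3′ on the gene's strand with the match in capitals. They lie at chr5:6896213-6896462 on the plus strand (MGD2), chr3:350011-350260 on the minus strand (GDPD1) and chr3:1634944-1635193 on the plus strand (PLDZ2).
MGD2: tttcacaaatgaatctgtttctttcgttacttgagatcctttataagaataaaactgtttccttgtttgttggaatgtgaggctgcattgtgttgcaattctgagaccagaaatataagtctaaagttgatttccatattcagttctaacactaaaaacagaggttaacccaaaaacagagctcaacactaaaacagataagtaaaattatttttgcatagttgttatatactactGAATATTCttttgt
GDPD1: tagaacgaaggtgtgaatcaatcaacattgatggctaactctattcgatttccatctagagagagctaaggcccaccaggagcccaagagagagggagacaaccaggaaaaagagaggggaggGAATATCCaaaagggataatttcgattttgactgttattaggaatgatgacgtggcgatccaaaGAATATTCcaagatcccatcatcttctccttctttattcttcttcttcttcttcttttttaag
PLDZ2: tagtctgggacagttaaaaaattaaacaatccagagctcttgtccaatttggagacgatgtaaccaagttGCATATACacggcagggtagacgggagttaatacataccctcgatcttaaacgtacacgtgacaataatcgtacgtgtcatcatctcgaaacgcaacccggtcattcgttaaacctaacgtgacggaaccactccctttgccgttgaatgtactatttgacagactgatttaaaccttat
The match of MGD2 began 14 bases before the gene start, the 2 matches of GDPD1 began 127 and 63 bases before it, and that of PLDZ2 began 180 bases before it. A match is a description of the letters and does not show that a factor binds there.

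Downstream of the gene start, within the transcribed part, 4 further matches were found. They are shown because 3 of them belong to genes without a match upstream, 2 of which, DGD1 and SQD1, were among the lowered genes described below, whereas the other, MGD1, was not. The stretches lie at chr4:15374002-15374031 on the plus strand (MGD1), chr5:6896489-6896512 on the plus strand (MGD2), chr3:3684822-3684842 on the minus strand (DGD1) and chr4:15935376-15935405 on the plus strand (SQD1), with the match again in capitals.
MGD1: aattgcccacaGAATATTCggataagtatt
MGD2: tcgaggaccttGAATATTCgaatc
DGD1: cttcgattccaGCATATTCct
SQD1: ggaataagtaaGAATATGCtttgggcatat
MGD3, DGD2, SQD2 and NPC5 held no match in this window, and of these MGD3 and SQD2 were also among the lowered genes described below.

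The MGDG synthases differed. The level of the housekeeping gene did not fall, while those of both phosphate-responsive genes fell to between 0.195 and 1.28 CPM in amiR-mterf2. MGD1 (AT4G31780, chr4:15373988-15377172), which encodes the synthase of the inner chloroplast envelope, had 28.6, 28.8 and 31.6 CPM in Col-0 and 37.3, 35.5 and 35.4 CPM in amiR-mterf2. All 3 mutant libraries were thus above all 3 Col-0 libraries, and the means were 29.7 ± 1.69 and 36 ± 1.06 CPM (SD, n = 3). The log2 fold change of 0.28 (SE 0.106) did not pass the threshold in edgeR (adjusted p = 0.062). It passed with scaling by nuclear genes (log2 0.30, adjusted p = 0.0418) and without Col-0 replicate 2 (log2 0.26, adjusted p = 0.0248). Over all 14 alternatives the adjusted p of MGD1 from edgeR or DESeq2 lay between 0.0248 and 0.494 and the fold change stayed positive.

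MGD2 (AT5G20410, chr5:6896463-6898783) encodes a synthase of the outer chloroplast envelope. It was counted 174, 110 and 123 times in Col-0 and 22, 6 and 12 times in amiR-mterf2, or 8.16, 5.99 and 5.75 CPM against 1.28, 0.293 and 0.64 CPM. The lowest Col-0 library was far above the highest mutant library. Its mean fell from 6.63 ± 1.33 to 0.739 ± 0.503 CPM (SD, n = 3), which was 9.12-fold lower in the edgeR fit (log2 -3.19, SE 0.398, adjusted p = 1.11e-04). Leaving out amiR-mterf2 replicate 1, the highest mutant library, moved the log2 fold change to -3.82.

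MGD3 (AT2G11810, chr2:4743162-4746813, listed as MGDC in the annotation) encodes the other outer envelope synthase and fell the most of the 10 genes. Its counts were 155, 135 and 215 in the wild type but 10, 4 and 14 in amiR-mterf2, which corresponds to 7.27, 7.35 and 10 CPM against 0.584, 0.195 and 0.747 CPM. The groups did not overlap, and amiR-mterf2 replicate 2 was close to the floor of 0.146 CPM. The mean fell from 8.22 ± 1.58 to 0.509 ± 0.284 CPM (SD, n = 3), a 16.2-fold decrease in edgeR (log2 -4.02, SE 0.361, adjusted p = 1.00e-05). Among the 17902 genes tested, ordered from the most lowered, MGD3 stood at rank 129 and MGD2 at rank 246.

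**Figure D1:**
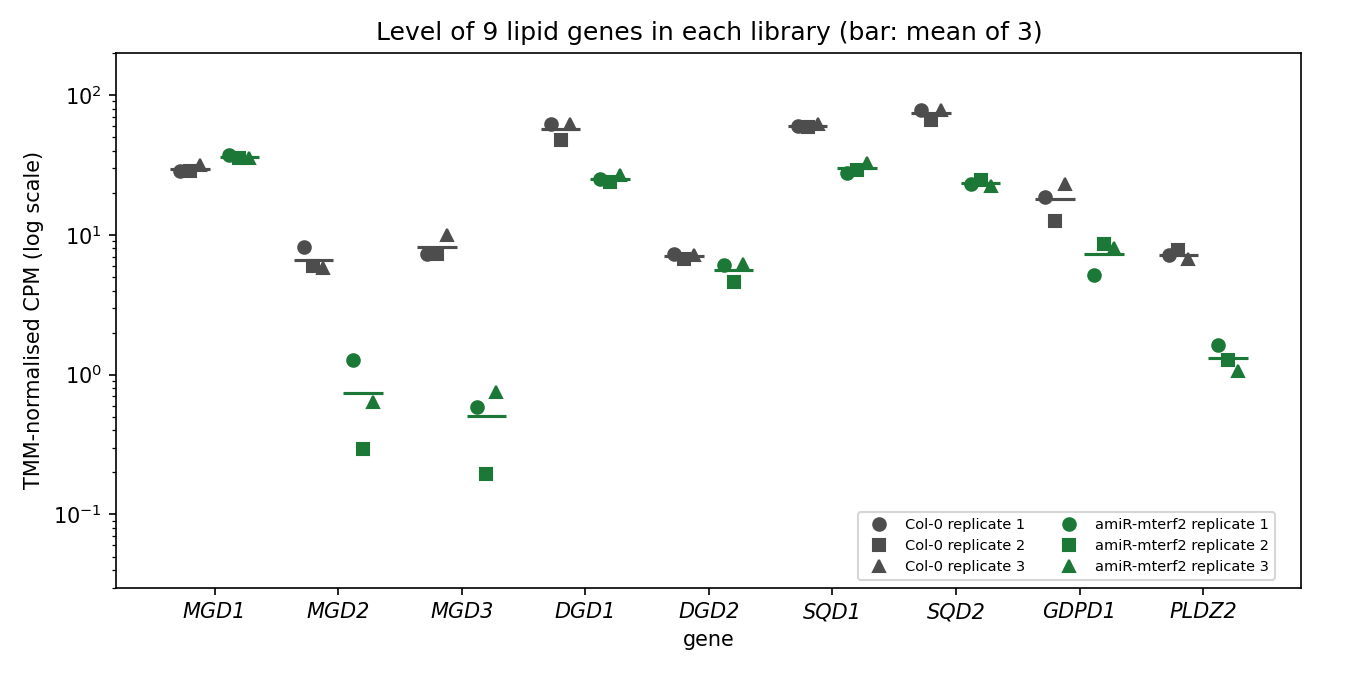
Level of 9 lipid genes in each library, in TMM-normalised CPM on a log axis, with 1 point per library, colours for the 2 groups and a bar for the mean of 3. MGD2, MGD3 and PLDZ2 lie near or below 1.63 CPM in all amiR-mterf2 libraries, whereas MGD1 lies between 28.6 and 37.3 CPM in all 6. NPC5, which had no counts, is not drawn.

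At the DGDG step the housekeeping gene fell, while the phosphate-responsive gene was lower by a smaller fold change that did not pass the test. DGD1 (AT3G11670, chr3:3680866-3684871) had 62.4, 47.9 and 61.7 CPM in Col-0 and 25, 23.9 and 26.9 CPM in amiR-mterf2. The mutant libraries lay close together and below each Col-0 library. The mean was 57.4 ± 8.18 CPM in Col-0 and 25.3 ± 1.51 CPM in amiR-mterf2 (SD, n = 3), 2.27-fold lower in edgeR (log2 -1.18, SE 0.13, adjusted p = 4.32e-05). DGD2 (AT4G00550, chr4:237901-240579) was the lower expressed of the pair, with 7.27, 6.75 and 7.2 CPM in Col-0 and 6.07, 4.58 and 6.19 CPM in amiR-mterf2. Again each mutant library was below each Col-0 library, but by a small margin. The log2 fold change of -0.34 (SE 0.178) did not pass the threshold in edgeR (adjusted p = 0.169), nor did it under any of the 14 alternatives, where the adjusted p lay between 0.0721 and 0.468.

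Both genes of sulfolipid synthesis fell. SQD1 (AT4G33030, chr4:15935373-15937833), the UDP-sulfoquinovose synthase that makes the head group donor, had 59.7, 59.5 and 61.7 CPM in Col-0 and 27.8, 29.2 and 32.8 CPM in amiR-mterf2. Replicates agreed closely within each group, with means of 60.3 ± 1.22 and 29.9 ± 2.6 CPM (SD, n = 3). SQD1 was 2.01-fold lower in edgeR (log2 -1.01, SE 0.109, adjusted p = 3.87e-05). SQD2 (AT5G01220, chr5:86543-90117), which transfers the sulfoquinovose to diacylglycerol, had 77.9, 66.3 and 77.9 CPM in Col-0 and 23.3, 24.6 and 22.3 CPM in amiR-mterf2. The mutant libraries spanned a narrow range far below the wild type. The mean fell from 74 ± 6.68 to 23.4 ± 1.17 CPM (SD, n = 3), 3.16-fold in edgeR (log2 -1.66, SE 0.115, adjusted p = 1.42e-06), which was the smallest adjusted p among the 10 genes.

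Of the 3 genes of phospholipid breakdown, both that were detected fell. PLDZ2 (AT3G05630, chr3:1635194-1640357), phospholipase D zeta 2, which cleaves phospholipids to phosphatidic acid, was counted 153, 143 and 144 times in Col-0 and 28, 26 and 20 times in amiR-mterf2. In CPM these were 7.18, 7.79 and 6.73 against 1.63, 1.27 and 1.07, without overlap and with little spread in either group. The mean fell from 7.23 ± 0.532 to 1.32 ± 0.288 CPM (SD, n = 3), 5.46-fold in edgeR (log2 -2.45, SE 0.235, adjusted p = 1.64e-05).

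GDPD1 (AT3G02040, chr3:348167-350010, listed as SRG3 in the annotation), a glycerophosphodiester phosphodiesterase that acts on deacylated phospholipids, had 18.8, 12.6 and 23 CPM in Col-0 and 5.2, 8.63 and 8.06 CPM in amiR-mterf2. Its Col-0 libraries were spread from 12.6 to 23 CPM, but the groups did not overlap. The mean fell from 18.1 ± 5.23 to 7.3 ± 1.84 CPM (SD, n = 3), 2.48-fold in edgeR (log2 -1.31, SE 0.236, adjusted p = 0.00133). This value is less certain than the others, because the annotated gene overlaps AT3G02030 on the opposite strand over 681 bases and the strand setting of the counting is not given in the sources used here. MGD1 and PLDZ2 overlap a neighbouring gene by 15 and 8 bases only. AT3G02030 itself had 0.995 ± 0.251 CPM in Col-0 and 0.624 ± 0.34 CPM in amiR-mterf2 (SD, n = 3). NPC5 (AT3G03540, chr3:846221-848297), a non-specific phospholipase C, had 0 counts in all 6 libraries and was not tested. The floor of 3 counts corresponds to 0.14 to 0.175 CPM per library, and the limit is higher where both reads of a pair are counted. No stretch of 50 bases of the exons of NPC5, or of the other 9 genes, recurred elsewhere in the genome.

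**Figure D2:**
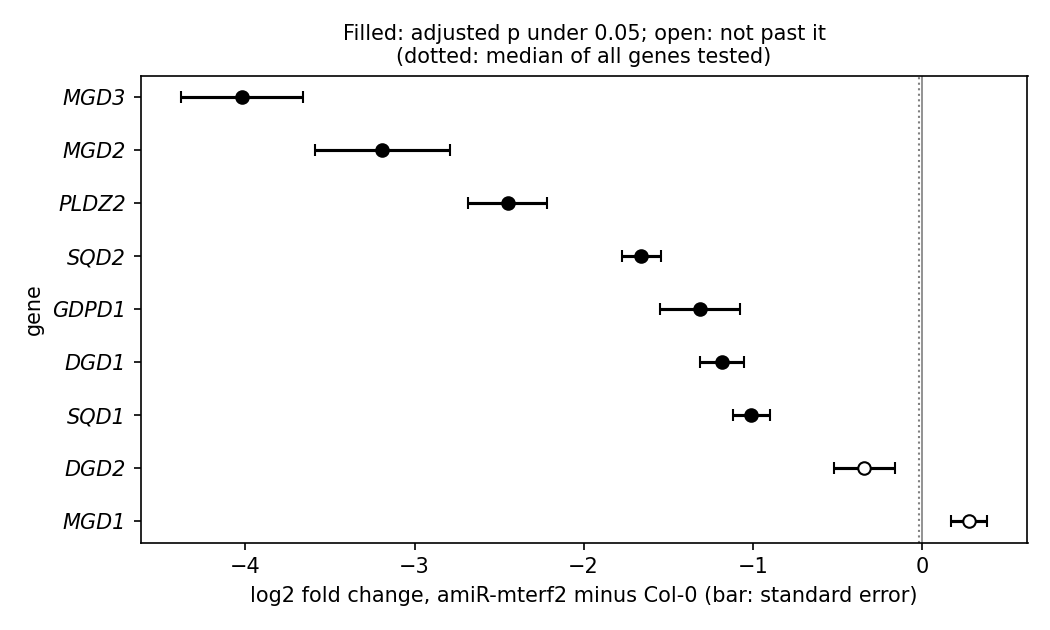
Log2 fold change of amiR-mterf2 against Col-0 for the 9 genes tested, with bars for the standard error of the edgeR fit. Filled points passed an adjusted p of 0.05, and the 7 filled points all lie below 0, from -1.01 for SQD1 to -4.02 for MGD3. The dotted line marks the median of all genes tested, -0.02.

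Counted together, 7 of the 9 tested genes were lower in amiR-mterf2 and 0 were higher by edgeR at an adjusted p of 0.05, while MGD1 and DGD2 did not pass. The count of higher genes was 1, MGD1, at an unadjusted p under 0.05 and 0 with DESeq2. Of all 17902 genes tested, 18.2% were lower and 18.1% were higher by the same rule. Every amiR-mterf2 library lay below every Col-0 library for 8 of the 10 genes, and for 24.4% of all genes tested. The median log2 fold change of the 9 genes was -1.31, against -0.02 over all genes tested. Since the 10 genes were chosen for a known role with results of these libraries already available, the counts are given as a description. The 7 lower calls held under each of the alternatives that could test the gene, with adjusted p of at most 0.00977 from edgeR or DESeq2 for GDPD1 and at most 0.00198 for the other 6. MGD2 and MGD3 could not be tested where at least 10 counts were required in every library.

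Per length of annotated exon sequence, the order of the 10 genes changed between the groups. In Col-0 the order of mean levels was SQD2 with 32.5 ± 2.94, SQD1 with 31.6 ± 0.637, DGD1 with 18.5 ± 2.63, MGD1 with 13.9 ± 0.792 and GDPD1 with 11.9 ± 3.43 CPM per kb (SD, n = 3). Lower levels were found for MGD3 with 4.27 ± 0.821, MGD2 with 3.47 ± 0.695, DGD2 with 3.2 ± 0.126 and PLDZ2 with 2.05 ± 0.151 CPM per kb. The library ranges of SQD2 and SQD1 overlapped, as did those of MGD1 and GDPD1, of MGD3 and MGD2, and of MGD2 and DGD2, so that these neighbours cannot be ordered. In amiR-mterf2, MGD1 had the highest mean with 16.9 ± 0.494 CPM per kb, overlapping SQD1 with 15.7 ± 1.36. SQD2 with 10.3 ± 0.513, DGD1 with 8.14 ± 0.487, GDPD1 with 4.78 ± 1.21 and DGD2 with 2.54 ± 0.405 CPM per kb followed without overlap between neighbours. MGD2 with 0.387 ± 0.263, PLDZ2 with 0.376 ± 0.0817 and MGD3 with 0.264 ± 0.147 CPM per kb stood last of the detected genes and overlapped.

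To compare related genes independently of library scaling, log2 ratios of their counts were formed within each library with a pseudocount of 0.5. MGD2, MGD3 and DGD2 were set against the housekeeping gene of the same step, and SQD2 against SQD1 of the preceding step. The ratio of MGD2 to MGD1 was -1.81, -2.26 and -2.46 in Col-0 and -4.83, -6.81 and -5.73 in amiR-mterf2, and that of MGD3 to MGD1 was -1.97, -1.97 and -1.65 in Col-0 and -5.93, -7.34 and -5.52 in amiR-mterf2. Neither ratio overlapped between the groups. Relative to MGD1, MGD2 was 12.2-fold lower (difference of means -3.61 on the log2 scale) and MGD3 was 21-fold lower (-4.40) in the mutant. The ratio of DGD2 to DGD1 moved in the opposite direction, from -3.10, -2.82 and -3.10 in Col-0 to -2.04, -2.38 and -2.11 in amiR-mterf2, a 1.78-fold increase of the ratio (difference 0.83). The ratio of SQD2 to SQD1, which are both phosphate-responsive, was 0.38, 0.16 and 0.34 in Col-0 and -0.25, -0.24 and -0.56 in amiR-mterf2, a 1.56-fold decrease of the ratio (difference -0.64). These are ratios of counts, not corrected for gene length, so that they show changes between the groups and not which gene of a pair had the higher level. In each of these 4 ratios the groups were fully separated and the two-sided exact permutation test gave p = 0.1, the smallest value that 3 libraries against 3 allow, and 0.1 after adjustment over the 4 ratios. These ratios thus could not pass a threshold of 0.05.

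**Figure D3:**
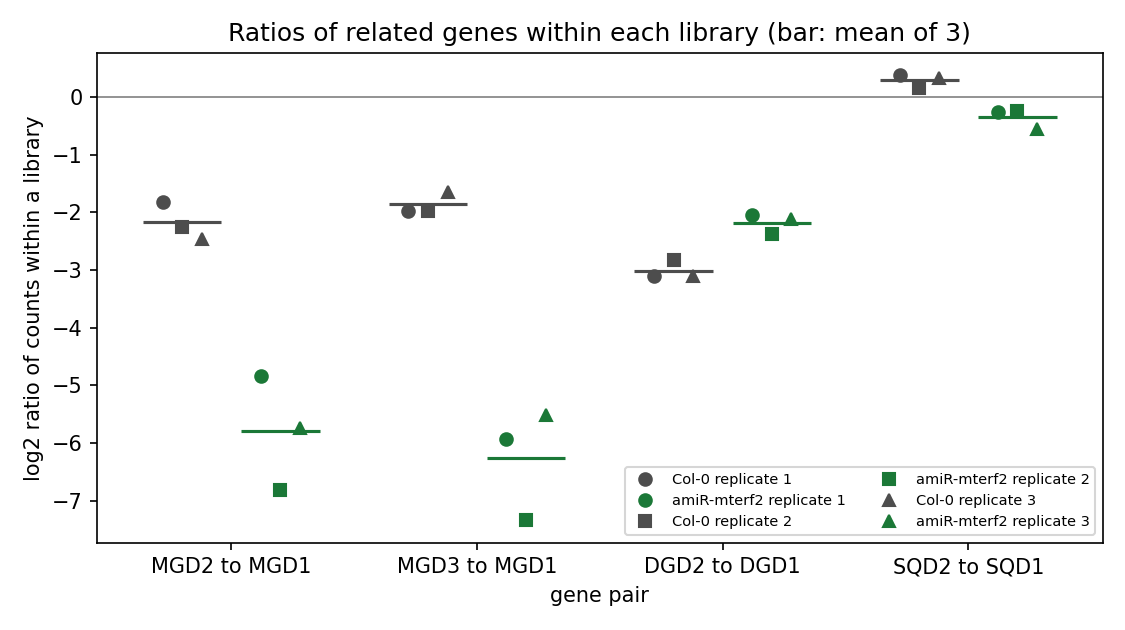
Log2 ratio of the counts of related genes within each library, with 1 point per library, colours for the 2 groups and a bar for the mean of 3. The ratios of MGD2 and MGD3 to MGD1 lie between -1.65 and -2.46 in Col-0 and between -4.83 and -7.34 in amiR-mterf2, while the ratio of DGD2 to DGD1 is higher in amiR-mterf2.

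MGD2, MGD3 and PLDZ2 are known for expression in roots as well as in shoots, so root markers were examined in the same libraries. Over a list of 15 root markers the summed level was 27, 93.7 and 31.4 CPM in Col-0 and 15.6, 12.6 and 13.4 CPM in amiR-mterf2, and 0 to 5 of the 15 genes had no counts in a Col-0 library against 8 to 10 in an amiR-mterf2 library. The stem cell niche markers WOX5, PLT1 and PLT2 were at 0 in all 3 amiR-mterf2 libraries. In Col-0 replicates 1, 2 and 3, WOX5 was counted 0, 4 and 2 times. PLT1 was counted 0, 12 and 0 times there and PLT2 0, 15 and 0 times, so that most of these counts came from Col-0 replicate 2. Of the 15 root markers, 10 had too few counts to be tested. Of the 5 tested, 3 were lower (against 18.2% of all genes tested) and 2 did not pass in edgeR. Named after their values were seen, the lower ones were COBL9 of root hairs and CASP1 and CASP2 of the endodermis. COBL9 was counted 10, 176 and 12 times in Col-0 and 0, 0 and 2 times in amiR-mterf2, so that it passed the count filter only through Col-0. Its adjusted p of 0.00782 in edgeR reached 0.0496 over the alternatives from edgeR or DESeq2. The log2 fold changes of CASP1 and CASP2 were -1.55 and -0.64. MYB36 of the endodermis (log2 0.04) and PIN2 (log2 -0.23) did not pass. The summed root marker level and the levels of MGD2, MGD3 and PLDZ2 were thus lower in each mutant library than in each Col-0 library. Few genes carried that sum. CASP1 alone had 14.9 and 18.4 CPM in Col-0 replicates 1 and 3 and 6.36, 6.78 and 5.18 CPM in amiR-mterf2. In Col-0 replicate 2 the root hair genes held 54.3 CPM of it. The part of root tissue in the fall of the lipid genes was not tested, and in whole seedlings fewer cells of a type cannot be told apart from less RNA per cell. The 10 green tissue markers summed to 14353, 22651 and 14619 CPM in Col-0 replicates 1, 2 and 3 and to 16615 to 16681 CPM in amiR-mterf2. Each mutant library was thus above Col-0 replicates 1 and 3 and below Col-0 replicate 2. Of these markers, 1 was higher, 2 were lower and 7 did not pass the test, against 18.1% higher and 18.2% lower over all genes tested.

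**Figure D4:**
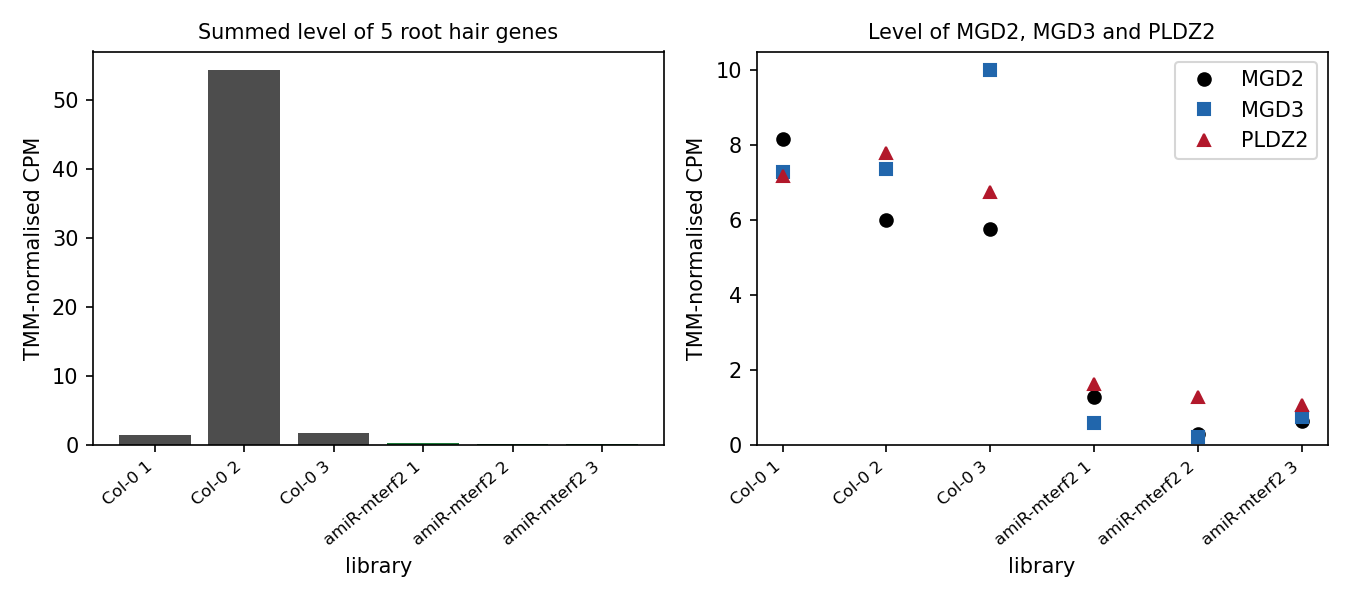
Summed level of 5 root hair genes (left) and levels of MGD2, MGD3 and PLDZ2 (right) in each of the 6 libraries, both in CPM on linear axes. The root hair genes reach 54.3 CPM in Col-0 replicate 2 and 1.41 and 1.68 CPM in the other Col-0 libraries, against 0.0975 to 0.234 CPM in amiR-mterf2. The 3 lipid genes are also lower in amiR-mterf2, where they lie between 0.195 and 1.63 CPM against 5.75 to 10 CPM in Col-0.

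Other genes of the phosphate starvation response mostly fell as well. Of a list of 17 such genes, 14 were tested. Of these, 10 were lower, 1 was higher and 3 did not pass, against 18.2% lower and 18.1% higher over all genes tested. The median log2 fold change of the list was -3.03. This median includes the lower genes IPS1, PHT1;1, PS2 and PPCK1, each with fewer than 10 counts in at least 1 mutant library. A median without them was not formed. The number of lower genes in the list was 6 where at least 10 counts were required in every library. AT4, a non-coding RNA that is induced by phosphate shortage, was counted 3974, 2353 and 3865 times in Col-0 and 64, 76 and 45 times in amiR-mterf2. Each mutant library was far below each Col-0 library, and AT4 was 50.2-fold lower in edgeR (log2 -5.65, SE 0.214, adjusted p = 3.98e-08). IPS1, a related non-coding RNA, was counted 46, 22 and 26 times in Col-0 and 0 times in all 3 amiR-mterf2 libraries (edgeR adjusted p = 3.28e-04). With each mutant library set to the floor of 3 counts, IPS1 was 9.5-fold lower. This is not a firm lower bound, because both reads of a pair may be counted in these libraries. PHR1, which encodes the factor that binds P1BS, had 28 ± 3.25 CPM in Col-0 and 32.3 ± 3.46 CPM in amiR-mterf2 (SD, n = 3), with overlapping groups and no call in edgeR (log2 0.21, SE 0.13, adjusted p = 0.249). The higher gene was SPX4, an SPX domain protein that restrains PHR1, with 6.58 ± 1.18 and 9.79 ± 1.73 CPM (SD, n = 3; edgeR log2 0.57, SE 0.187, adjusted p = 0.0345), and this call was lost in 5 of 14 alternatives. P1BS was found in the promoter windows of 8 of the 17 genes, against 6.25% of all promoters. One of the lower genes, PHT1;1, shares nearly its whole sequence with PHT1;2, so that its counts are uncertain. PHT1;1 was counted 10, 114 and 24 times in Col-0 and 2, 4 and 8 times in amiR-mterf2, with the highest value in Col-0 replicate 2, and its adjusted p of 0.0156 in edgeR ranged from 4.87e-04 to 0.0762 over the alternatives.

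Among 12 other genes of phospholipid turnover, 10 were tested. Of these, 5 were lower, 1 was higher and 4 did not pass, against 18.2% lower and 18.1% higher over all genes tested. The median log2 fold change of the list was -0.36. The higher gene was GDPD2, a homologue of GDPD1, and it moved in the opposite direction to GDPD1. GDPD2 had 43.3, 43 and 46.5 CPM in Col-0 and 313.6, 310.4 and 309.4 CPM in amiR-mterf2, 7.03-fold higher with hardly any spread within groups (edgeR log2 2.81, SE 0.102, adjusted p = 3.23e-08). GDPD5, a further homologue, fell from 8.69 ± 2.18 to 2.01 ± 0.225 CPM (SD, n = 3; edgeR log2 -2.11, SE 0.239, adjusted p = 5.45e-05). NPC4, the nearest homologue of the undetected NPC5 and located next to it on the chromosome, was counted 24, 28 and 12 times in Col-0 and 2, 0 and 2 times in amiR-mterf2 (edgeR adjusted p = 0.00341). The other lower genes were NPC3 and NPC6, each with a log2 fold change of -1.42, and PAH1, a phosphatidate phosphohydrolase, with -0.41, all 3 named after their values were seen. The call of PAH1 (edgeR adjusted p = 0.0393) did not hold under each alternative, where its adjusted p from edgeR or DESeq2 reached 0.161. PLDZ1, the homologue of PLDZ2, had 25.5, 24.9 and 28.4 CPM in Col-0 and 20.4, 19.6 and 23.2 CPM in amiR-mterf2. It was lower in each mutant library but did not pass in edgeR (log2 -0.32, SE 0.12, adjusted p = 0.0592).

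Of 13 other genes of chloroplast lipid assembly, for the plastid acyltransferases, phosphatidate phosphatases, lipid import and related steps, 12 were tested, 2 were higher, 1 was lower and 9 did not pass, with a median log2 fold change of 0.04. Over all genes tested, 36.4% were called in either direction. ATS1, the plastid glycerol-3-phosphate acyltransferase, rose from 24.5 ± 1.27 to 35.5 ± 1.59 CPM (SD, n = 3; edgeR log2 0.53, SE 0.108, adjusted p = 0.00295). ATS2, which catalyses the following acylation, rose from 22.1 ± 2 to 31 ± 2.32 CPM (SD, n = 3; edgeR log2 0.49, SE 0.12, adjusted p = 0.00856), a call that did not hold when libraries were scaled by their totals. SFR2, a galactolipid galactosyltransferase known for freezing tolerance, fell from 41.7 ± 4.14 to 26.2 ± 3.78 CPM (SD, n = 3; edgeR log2 -0.67, SE 0.134, adjusted p = 0.00258). No gene of this list held P1BS in its promoter window, against 6.25% of all promoters. Without amiR-mterf2 replicate 3 the number of lower genes was 2.

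The desaturases that act on the acyl chains of the chloroplast lipids were mostly higher. Of 6 genes, 4 were higher, 1 was lower and 1 did not pass, against 18.1% higher and 18.2% lower over all genes tested. The median log2 fold change of the 6 genes was 0.85. FAD5, which desaturates palmitate on MGDG, rose from 47.8 ± 1.91 to 156.5 ± 5.31 CPM (SD, n = 3), 3.27-fold in edgeR (log2 1.71, SE 0.101, adjusted p = 4.73e-07). FAD8, an omega-3 desaturase, had 4.83, 6.92 and 7.38 CPM in Col-0 and 19.4, 26.9 and 22.4 CPM in amiR-mterf2, 3.59-fold higher in edgeR (log2 1.85, SE 0.184, adjusted p = 2.08e-05). The other higher genes, named after their values were seen, were FAD7 and FAD6 with log2 fold changes of 1.11 and 0.59. FAB2, the stearoyl-ACP desaturase, was the lower gene, with 104.3 ± 3.61 and 82.4 ± 4.81 CPM (SD, n = 3; edgeR log2 -0.34, SE 0.101, adjusted p = 0.0218), and this call was lost without Col-0 replicate 3 and without any single amiR-mterf2 library.

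**Figure D5:**
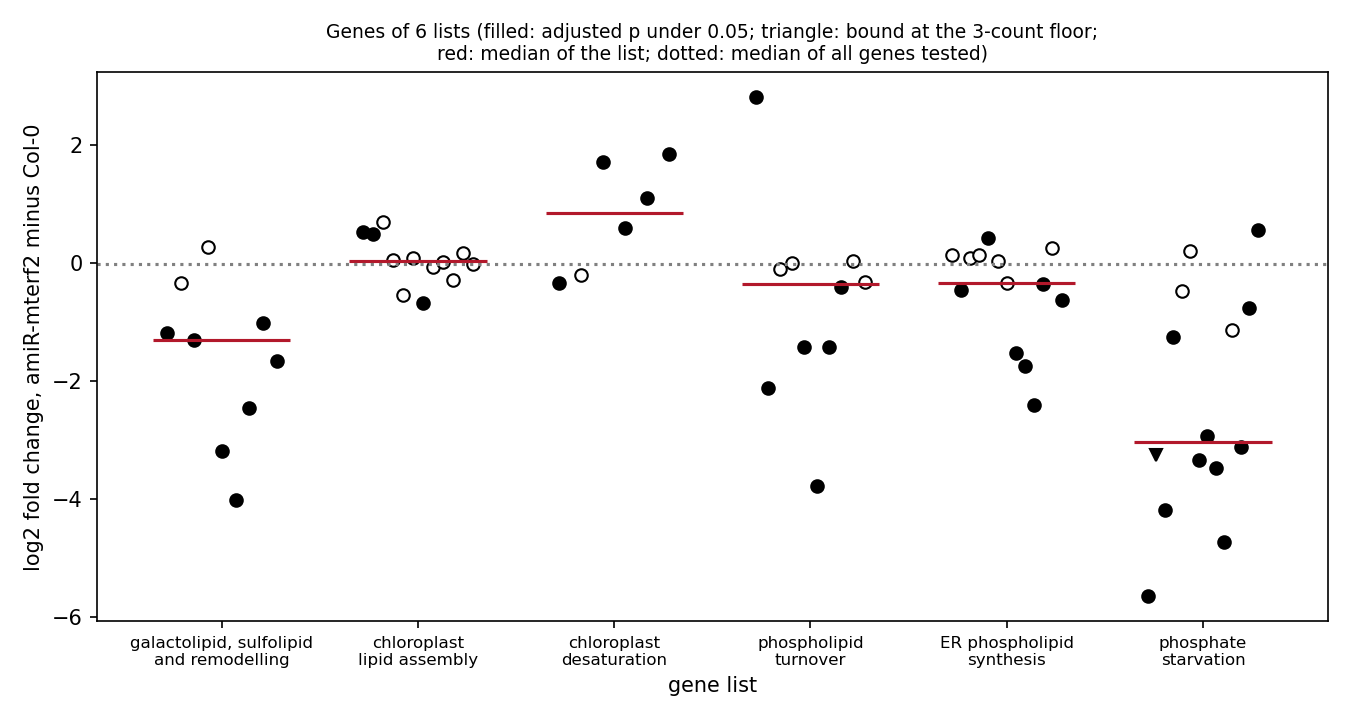
Log2 fold change of amiR-mterf2 against Col-0 for the tested genes of the 10 lipid genes and of 5 other lists, with filled points past an adjusted p of 0.05, a red bar at the median of each list and a dotted line at the median of all genes tested. The medians are -1.31 for the 10 lipid genes and -3.03 for the phosphate starvation response. Both of these lists include tested genes with fewer than 10 counts in a mutant library. The medians are 0.04 for chloroplast lipid assembly and 0.85 for desaturation. A triangle marks IPS1 with the mutant libraries set to the 3-count floor.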

How the data were processed

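RNA-Seq libraries were made by the study from rRNA-depleted total RNA and sequenced as read pairs. The authors deposited raw counts of reads per gene over exons, 1 table per library, without normalization. The submitters' processing notes name Trimmomatic, FastQC, TopHat2 2.1.1, featureCounts and the TAIR10 build, whereas the column headers of the deposited tables name HISAT2, and the strand and pair settings of the counting are not given in the sources used here. In 5 libraries counts were mostly even, as where both reads of a pair are counted. Gene positions, exon lengths and promoter sequences came from the RefSeq annotation of TAIR10.1, which held 36632 of the 36917 identifiers.

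Genes were kept by filterByExpr of edgeR 4.0.16 (minimum count 10, minimum total 15; R 4.3.3, limma 3.58.1), scaled by TMM, and tested with the quasi-likelihood F test of edgeR, adjusting p by Benjamini-Hochberg across the 17902 genes kept (threshold 0.05). The standard error is the log2 fold change divided by the root of the F statistic. No 2 libraries agreed within sampling noise. The steps were tested on simulated counts. Ratios, motif counts and figures were made in Python 3.11.15 (pandas 2.3.3, numpy 2.4.6, matplotlib 3.10.9, scipy 1.17.1). Alternatives were DESeq2 1.42.0 size factors and Wald test, total counts, nuclear scaling, no filter, at least 10 counts in every library, a replicate block, a pseudocount of 1, each library left out, and, added after seeing the data, the 5 libraries with their counts divided by 2. Named genes were the 10 genes, MTERF2, PHR1, PLDZ1, NPC4 and, per list, up to 2 called genes with the largest rise and fall and no overlap between groups. The genes and lists were chosen with earlier results of these data known.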

Additional observations from a re-analysis of the deposited data

How the results depend on the processing

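The 7 lower calls among the 10 lipid genes held when any single library was left out (7 to 7 genes) and with the counts of 5 libraries divided by 2, and in the 5 genes that could be tested when at least 10 counts were required in every library. The number of higher genes among the 10 was 0, but 1, MGD1, with scaling by nuclear genes, and 0 to 1 with a library left out. Over all genes, 3248 were higher and 3261 lower. With total counts without TMM, 2131 were higher and 4136 lower, and the median log2 fold change moved from -0.02 to -0.17. With a library left out, 2479 to 4045 were higher and 2489 to 3804 lower. The 5 pathway lists together held 9 higher and 23 lower genes among 55 tested, against 18.1% and 18.2% over all genes. With a library left out, these lists held 7 to 9 higher and 16 to 23 lower genes. The ratios spanned -4.09 to -3.10 for MGD2 to MGD1, -4.77 to -3.86 for MGD3 to MGD1, 0.76 to 0.93 for DGD2 to DGD1 and -0.71 to -0.54 for SQD2 to SQD1 without single libraries. Counting P1BS before the gene start alone gave 3 genes in place of 6. None of the fold changes of the 9 tested lipid genes and none of the 4 ratios changed sign under these alternatives, whereas the median over all genes was 0.01 with nuclear scaling. Higher calls then outnumbered lower ones (3400 against 3119). In chloroplast lipid assembly total counts gave 1 higher and 2 lower genes in place of 2 and 1.

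Same-numbered libraries did not deviate together (correlations 0.037, 0.03 and -0.015, and not each library was closest to its own number), so the numbers give no pairing. A replicate block gave 3146 higher and 3126 lower genes over all genes, 7 lower and 0 higher among the 10, and 8 higher and 21 lower in the lists. In paired form the 4 ratios kept their differences of -3.61, -4.40, 0.83 and -0.64, with an exact p of 0.25, the smallest that 3 pairs allow. MGD2, MGD3 and NPC4 rest on few counts in the mutant, and NPC5 could not be judged at this depth.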

Other observations

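The synthesis of phospholipids in the endoplasmic reticulum, which draws on the same kind of precursor, belongs to the 5 pathway lists counted and drawn above. Its genes are described here. Of 13 genes of this pathway, all tested, 6 were lower, 1 was higher and 6 did not pass in edgeR. The shares over all genes tested were 18.2% lower and 18.1% higher. The median log2 fold change of the 13 genes was -0.34. The 3 phosphoethanolamine N-methyltransferases, which make the phosphocholine of phosphatidylcholine, were the most lowered of them. NMT3 had 7.41, 11.7 and 8.13 CPM in Col-0 and 2.92, 1.27 and 0.961 CPM in amiR-mterf2, without overlap, and fell by 2.41 on the log2 scale (SE 0.355, edgeR adjusted p = 3.52e-04). The log2 fold change of NMT3 was -3.0 without amiR-mterf2 replicate 1, the highest mutant library. NMT2 fell from 38.4 ± 7.04 to 11.4 ± 0.67 CPM (SD, n = 3; edgeR log2 -1.75, SE 0.148, adjusted p = 6.58e-06). NMT1, named after its values were seen, had 6, 17.3 and 6.73 CPM in Col-0 and 3.21, 3.8 and 3.31 CPM in amiR-mterf2 (edgeR log2 -1.53, adjusted p = 0.00716), and its Col-0 mean is raised by replicate 2. CEK1, a choline and ethanolamine kinase, was the higher gene (edgeR log2 0.43, SE 0.148, adjusted p = 0.0426), a call that was lost in 9 of 14 alternatives, and the number of lower genes was 3 without amiR-mterf2 replicate 2. P1BS was found in the promoter windows of 1 of these 13 genes, 5 of the 12 turnover genes and 1 of the 6 desaturase genes. The share over all promoters was 6.25%.

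RNA of 5 seed markers summed to 8.63, 9.69 and 9.21 CPM in Col-0 and 18.4, 16 and 17.8 CPM in amiR-mterf2. Most of this rise came from CRU3, with means of 0.847 CPM in Col-0 and 9.12 CPM in amiR-mterf2. In the same order the means were 6.17 and 5.88 CPM for CRA1, 0.576 and 1.56 CPM for OLEO1, and 1.59 and 0.352 CPM for OLEO2. SESA1, which was not tested, had 0 and 0.514 CPM. Of the 4 seed markers tested, 2 were higher and 1 was lower in edgeR, against 18.1% and 18.2% of all genes tested. Their part in the values of the lipid genes was not tested.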
